A study of Mus musculus with 2 samples.

Results

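The mouse Ly6 surface antigens *Ly6c2*, *Ly6g*, *Ly6d*, *Ly6a* and *Ly6e* were described in single BMCs, non-erythrocyte bone marrow cells, of 1 WT and 1 Cko mouse. The members were chosen by name, and all 5 were among the 6001 genes listed in both libraries. Both mice were C57BL6/J at postnatal day 21, and BMCs came from the long bones of all limbs. The WT mouse carried floxed *Mbtps1* alleles, the gene for site-1 protease (S1P), without Cre. The Cko mouse carried the same floxed alleles with the Osx1-GFP::Cre transgene, which is driven by the promoter of *Sp7* (Osterix). The promoter is used for cells of the osteoblast lineage, but the study describes the transgene as active in blood cells, neutrophils among them, as well. Which of the BMCs read here had lost S1P was not tested. A Cre effect and the loss of S1P cannot be told apart, because the WT mouse had no Cre.

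The Ly6 family comprises small, cysteine-rich proteins that a glycolipid anchor holds on the outer face of the cell membrane. Antibodies to them are widely used to sort mouse blood cells: Ly6C separates inflammatory from patrolling monocytes, Ly6G marks neutrophils, Ly6D marks lymphoid progenitors that have committed to the B lineage, and Ly6A, better known as Sca-1, marks blood stem cells and several stromal cells. Ly6E, also called thymic shared antigen or Sca-2, is widespread and is induced by type I interferon.

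All 5 genes lie on chromosome 15 of GRCm38 (GENCODE annotation), within 397 kb. *Ly6d* spans 74762056 to 74763620 on the minus strand and has up to 3 exons. *Ly6e* spans 74955051 to 74959905 on the plus strand. *Ly6a* spans 74994877 to 74998031 and *Ly6c2* 75108158 to 75111970, both on the minus strand, and *Ly6g* spans 75155240 to 75159126 on the plus strand. Of the windows of 98 bases, the length of a cDNA read, in the last 500 bases of the annotated *Ly6c2* transcripts, 118 of 688 (17.2%) also occur in *Ly6c1*, so that some reads cannot be assigned to either gene. No such window of *Ly6g*, *Ly6d*, *Ly6a* or *Ly6e* occurs in another gene.

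*Ly6c2* and *Ly6g* lie close together, yet one peaked in monocyte-like and the other in neutrophil-like cells, and their promoters are shown for this reason. RefSeq promoters of 300 bases, from 250 bases before to 50 bases after a transcription start (GRCm38.p6), were matched for 2 of the 5 members, *Ly6c2* and *Ly6g*, with 2 starts each. The pair of starts with the closest sequences is printed 5′ to 3′ on the strand of the gene. Capitals mark matches to TTNCNNAA, the core that C/EBP factors bind, and to GAGGAA, a core that PU.1 binds, on either strand. 
*Ly6c2*, chr15:75111922-75112221, minus strand: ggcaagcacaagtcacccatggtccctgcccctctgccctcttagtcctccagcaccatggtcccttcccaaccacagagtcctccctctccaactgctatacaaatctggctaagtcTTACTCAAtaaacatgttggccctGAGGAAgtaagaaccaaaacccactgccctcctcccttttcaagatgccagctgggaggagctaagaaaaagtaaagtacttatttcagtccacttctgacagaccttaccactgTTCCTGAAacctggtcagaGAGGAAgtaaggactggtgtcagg
*Ly6g*, chr15:75155079-75155378, plus strand: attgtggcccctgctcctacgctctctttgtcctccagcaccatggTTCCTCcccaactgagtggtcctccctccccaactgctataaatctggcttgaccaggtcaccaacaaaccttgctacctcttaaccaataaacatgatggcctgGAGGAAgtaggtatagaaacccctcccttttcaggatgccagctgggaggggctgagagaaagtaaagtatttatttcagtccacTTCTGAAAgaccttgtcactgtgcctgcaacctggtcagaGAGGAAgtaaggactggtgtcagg
The aligned sequences were identical at 226 of 312 positions (72.4%). The *Ly6c2* promoter held 2 matches to TTNCNNAA and 2 to GAGGAA, whereas the *Ly6g* promoter held 1 and 3. Matches overlapped in neither sequence. Of all 32851 RefSeq promoters of this length, 40.7% held TTNCNNAA and 28.3% held GAGGAA, so both motifs are frequent. TTCNNNGAA, the site of STAT factors, and GAAANNGAA, a pair of interferon response core sites, matched neither promoter, and 8.30% and 8.56% of all promoters held them. A match is a run of letters and was not tested as a binding site.

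The WT library held 6271 cells with at least 200 genes and the Cko library 3662, with 56382459 and 34447224 UMIs and medians of 6977 and 7440 UMIs per cell. With 1 library per genotype there was no replicate and no test. The 95% intervals given cover counting error only. *Mbtps1* stood at 31.9 CPM in WT (30.5 to 33.4) and 31.2 in Cko (29.3 to 33.1), and it checks nothing, because the 3′ tag lies outside the deleted exon. *Xist* was listed in the Cko library alone (815 CPM), whereas the Y-linked *Ddx3y* was listed in the WT library alone (23.5 CPM), so the sex of the mouse and the genotype cannot be told apart. The cells fell into 12 classes named after marker genes, from clusters formed without the Ly6 family. A barcode sequence occurred in both libraries 28 times. The erythroid-like share was 57.3% in WT and 15.8% in Cko, the neutrophil-like share 10.2% and 32.4%, the monocyte-like share 5.50% and 16.2%, and the B cell-like share 13.5% and 16.8%.

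Each member had its own set of cells. *Ly6c2* peaked in monocyte-like cells, *Ly6g* was mostly seen in neutrophil-like cells, and *Ly6d* peaked in plasmacytoid dendritic cell-like and late B cell-like cells. *Ly6a* was sparse everywhere. *Ly6e* was present in every class, and of the whole classes neutrophil-like cells had the lowest level. Over all cells, the Cko/WT ratio was 2.25 for *Ly6c2* (2.22 to 2.28), 3.83 for *Ly6g* (3.63 to 4.03), 1.54 for *Ly6d* (1.45 to 1.63), 1.28 for *Ly6a* (1.06 to 1.53) and 1.23 for *Ly6e* (1.21 to 1.25). In cells outside the erythroid-like class, a set chosen after the data were seen, the ratio was 1.13 for *Ly6c2* and 2.07 for *Ly6g*. The ratios of *Ly6d* (0.963), *Ly6a* (0.663) and *Ly6e* (0.797) were below 1 there. Levels over whole libraries thus moved with the share of each class, and the values below are taken within classes.

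**Figure D1:**
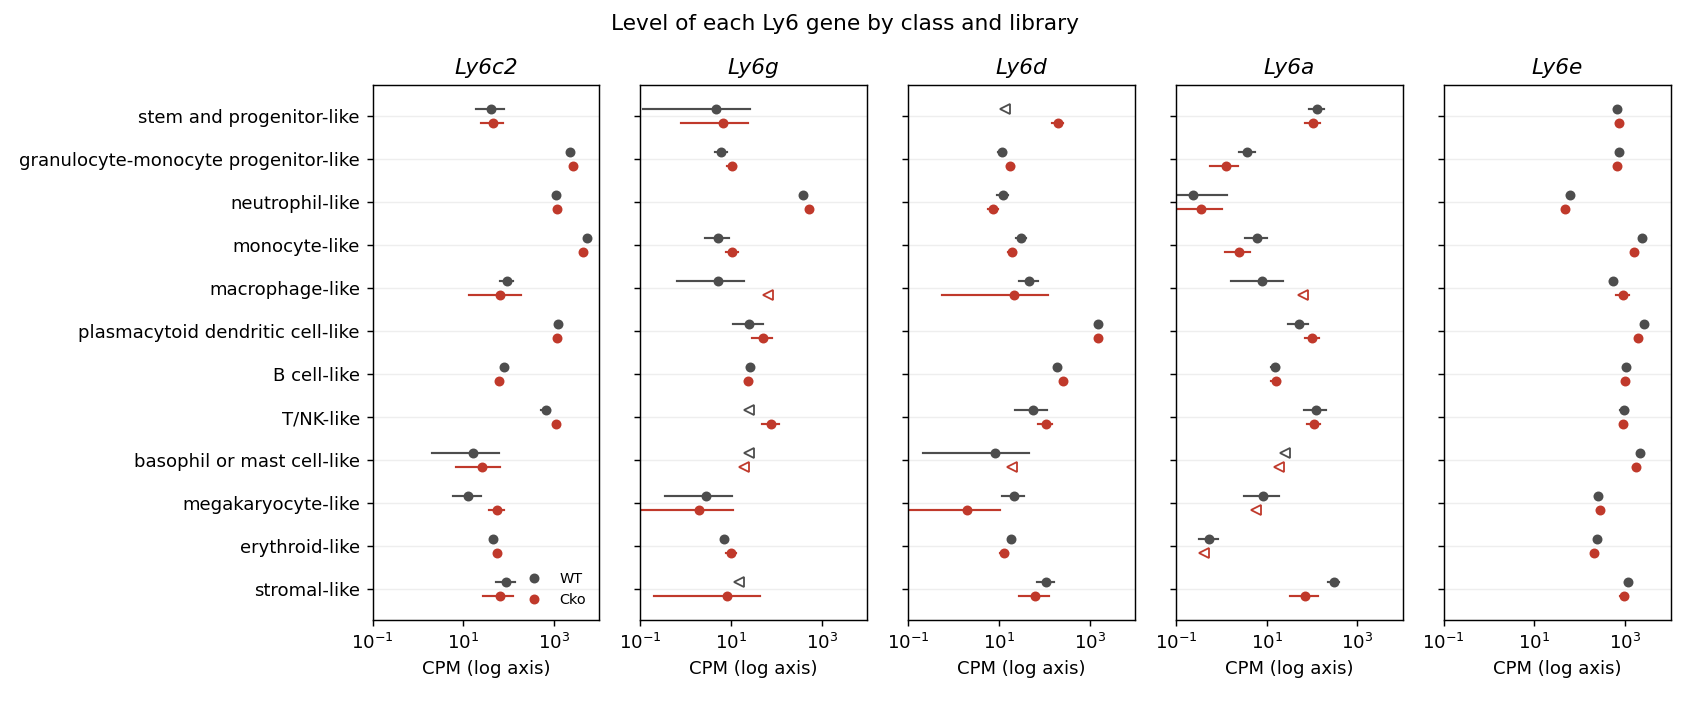
Level of each of the 5 Ly6 genes (horizontal log axis, CPM, UMIs of the gene per 1000000 UMIs of the class) in 12 classes (rows) in the WT library (grey) and the Cko library (red). Filled points are levels with 95% Poisson intervals, and open triangles mark classes with no UMI, drawn at the level of 3 UMIs. *Ly6g* stands at 381 and 529 CPM in neutrophil-like cells and under 100 CPM elsewhere, whereas *Ly6e* exceeds 200 CPM in every class but neutrophil-like cells.

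*Ly6c2* encodes the Ly6C antigen of monocytes. In monocyte-like cells it stood at 5294 CPM in WT (5201 to 5389) and 4324 CPM in Cko (4263 to 4385). These were the highest levels of any member in any class, and 97.1% of the WT and 97.3% of the Cko cells held a UMI. A cell held a median of 32 UMIs in WT and 21 in Cko, and up to 125 and 202. The Cko/WT ratio was 0.817 (0.798 to 0.835), and *Ly6c2* was not past 1.5-fold.

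The class joined a pair of clusters that differed in *Ly6c2*. In the cluster led by *Fn1*, *F13a1* and *Ms4a6c*, the level was 5558 CPM in WT and 5256 in Cko, a ratio of 0.946 (0.923 to 0.968). In the cluster led by *Sirpb1c*, *Wfdc17* and *Apoe*, in which the antigen presentation genes *H2-Aa* and *Cd74* also led, the level was 2554 CPM in WT and 2145 in Cko, a ratio of 0.840 (0.765 to 0.924). The second cluster stood at 0.459 times the first in WT (0.420 to 0.502) and at 0.408 times in Cko (0.392 to 0.425). It held 13.3% of the monocyte-like cells in WT (46 cells) and 46.8% in Cko (278 cells). The lower level over the whole class thus came with a different share of the low cluster, beside smaller differences within each cluster.

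Granulocyte-monocyte progenitor-like cells, led by the granule proteases *Elane*, *Prtn3* and *Ctsg*, came next. Their *Ly6c2* level was 2269 CPM in WT (2235 to 2304) and 2619 in Cko (2582 to 2657), a ratio of 1.15 (1.13 to 1.18). The median cell held 23 UMIs in WT and 35 in Cko, and 10% of cells held at most 2 and 3. In plasmacytoid dendritic cell-like cells the levels were 1216 and 1146 CPM and in neutrophil-like cells 1134 and 1154 CPM. The intervals of the last pair of classes overlapped in both libraries, so their order is not set beyond counting error.

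T/NK-like cells, led by *Ccl5*, *Gzma* and *Ms4a4b*, were few, with 19 WT and 62 Cko cells. *Ly6c2*, also a marker of memory CD8 T cells, stood at 665 CPM in WT (529 to 826) and 1126 in Cko (1012 to 1249). The ratio was 1.69 (1.33 to 2.18), and 31.6% of the WT and 61.3% of the Cko cells held a UMI. This was the single member past 1.5-fold of the 2 that reached 100 UMIs in the class, in which 37.0% of all 533 genes of that depth were past 1.5-fold. In all other classes *Ly6c2* was below 100 CPM. Erythroid-like cells, taken as the background, stood at 46.3 CPM in WT and 54.4 in Cko, with a UMI in 15.3% and 21.1% of cells at medians of 7106 and 9048 UMIs. After thinning of each cell to 3000 UMIs these shares were 6.98% (6.17 to 7.87) and 10.1% (7.72 to 12.8). Shares of *Ly6c2* near these are read as background here. An erythroid-like cluster led by *Acp5* and *Retnlg* held 688 of their 1607 WT UMIs and 189 of their 387 Cko UMIs. The other WT clusters stood at 44.7 CPM or less, so this background is pooled over unlike clusters. Thinned shares were 8.50% in WT and 11.2% in Cko for B cell-like cells, again pooled over unlike clusters. For stem and progenitor-like cells they were 10.5% and 18.4%, with 38 cells in each library and intervals that reach below 10%.

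*Ly6g* encodes the Ly6G antigen of neutrophils. Neutrophil-like cells held 77.5% of all *Ly6g* UMIs of the WT library and 92.4% of those of the Cko library. The level was 381 CPM in WT (363 to 400) and 529 in Cko (513 to 544), and after thinning a UMI was seen in 50.8% (46.8 to 54.7) and 62.7% (59.9 to 65.5) of cells. The cell with most UMIs held 19 in WT and 25 in Cko. Erythroid-like cells, the background, stood at 7.01 and 9.97 CPM, with thinned shares of 1.45% and 1.04%. Of their UMIs, 171 of 243 in WT and 30 of 71 in Cko lay in the cluster led by *Acp5* and *Retnlg*. Their other clusters stood at 3.13 CPM or less in WT and 8.92 CPM or less in Cko. Levels in granulocyte-monocyte progenitor-like cells (6.10 and 10.5 CPM) and monocyte-like cells (5.19 and 10.6 CPM) were close to the whole erythroid-like class. They were above those of its other clusters. Their thinned shares were 1.38% and 1.57%, and 1.16% and 2.69%.

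The Cko/WT ratio of *Ly6g* in neutrophil-like cells was 1.39 (1.31 to 1.47). With each library clustered on its own it was 1.66, and with classes from marker scores 1.54, both past 1.5-fold. The ratio was smaller within the clusters of the class. The cluster led by the secondary granule genes *Ngp* and *Camp* with *Chil3* stood at 220 CPM in WT and 252 in Cko, a ratio of 1.15 (1.05 to 1.25). The cluster led by *Retnlg*, *Mmp8* and *Mmp9*, genes of later neutrophils, stood at 1183 and 1154 CPM, a ratio of 0.976 (0.903 to 1.05). It was 5.39 times the first in WT (4.88 to 5.95) and 4.59 times in Cko (4.31 to 4.89). The later cluster made up 26.8% of the neutrophil-like cells in WT and 46.2% in Cko.

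The ratio was close to 1 when the neutrophil-like cells of both libraries were divided into 3 bins of about equal size by a maturation score, the log2 ratio of UMIs of 6 late to 6 early genes, none of which is a Ly6 gene. In the least mature bin *Ly6g* stood at 236 CPM in WT (216 to 257) and 240 in Cko (223 to 258), a ratio of 1.02 (0.907 to 1.14). In the middle bin it stood at 348 and 327 CPM, a ratio of 0.939 (0.843 to 1.05). In the most mature bin it stood at 1108 CPM (1018 to 1203) and 1116 CPM (1075 to 1158), a ratio of 1.01 (0.920 to 1.10). WT and Cko neutrophil-like cells of like maturation did not differ in *Ly6g* beyond counting error in any bin. Of the neutrophil-like cells, 17.1% in WT and 42.2% in Cko were in the most mature bin. The bins are ranges of a score rather than cell types, and 511 and 220 of the 1828 cells lay within 0.5 of the lower and the upper limit.

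*Ly6c2* depended far less on maturation. It stood at 1086 CPM in WT (1042 to 1130) and 1028 in Cko (993 to 1065) in the least mature bin, and at 1325 (1227 to 1429) and 1374 (1328 to 1421) in the most mature. The most over the least mature bin gave 1.22 in WT and 1.34 in Cko for *Ly6c2*, against 4.69 and 4.65 for *Ly6g*. Both antigens were seen in the same neutrophil-like cell, after thinning, in 47.4% of the WT and 58.6% of the Cko cells. *Ly6g* without *Ly6c2* was seen in 3.43% and 4.13%. A cell with *Ly6g* UMIs thus mostly held *Ly6c2* UMIs as well, whereas 44.9% of WT and 33.5% of Cko cells held *Ly6c2* alone.

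**Figure D2:**
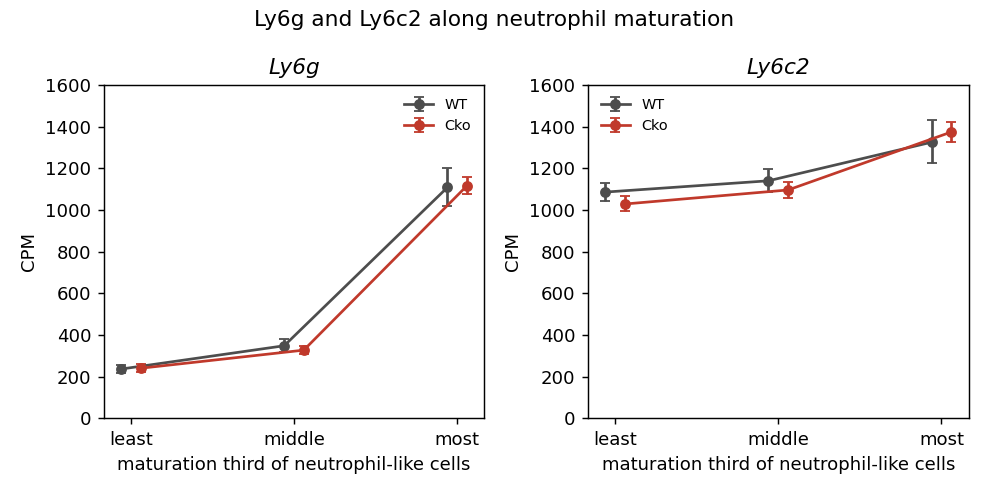
Levels of *Ly6g* (left) and *Ly6c2* (right) in CPM (vertical axis, from 0) in 3 bins of the neutrophil-like cells from least to most mature, in WT (grey) and Cko (red), with 95% Poisson intervals. *Ly6g* goes from 236 and 240 CPM to 1108 and 1116 CPM, and the WT and Cko intervals overlap in each bin.

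*Ly6d* encodes an antigen of the B lineage and of plasmacytoid dendritic cells. In plasmacytoid dendritic cell-like cells, the interferon-producing cells led by *Siglech*, *Bst2* and *Cd7*, it stood at 1523 CPM in WT (1390 to 1666) and 1505 in Cko (1378 to 1640). The ratio was 0.988 (0.871 to 1.12) in 53 WT and 54 Cko cells. The class joined a pair of clusters. That led by *Cd7*, *Irf8* and *Siglech* (41 WT and 31 Cko cells) had a ratio of 0.787 (0.672 to 0.922). That led by *Siglech*, *Bst2* and *Cd7* (12 and 23 cells) had a ratio of 1.13 (0.876 to 1.47). Single cells ranged widely: the median was 2 UMIs in WT and 1 in Cko, and the highest cells held 57 and 81. After thinning, *Ly6d* was seen in 62.3% of the WT cells (47.9 to 75.2) and in 50% of the Cko cells (36.1 to 63.9). Of the 3 members with 100 UMIs in this class none was past 1.5-fold, where 18.6% of all 860 genes were.

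The B cell-like class ran from early to late clusters, and *Ly6d* was ordered along them. In the cluster led by the surrogate light chain genes *Vpreb1* and *Igll1* with *Dntt*, it stood at 81.3 CPM in WT (72.2 to 91.4) and 79.1 in Cko (69.3 to 90.0). In the cluster led by *Myl4*, in which *Vpreb3* and *Cd79b* also led, it stood at 188 CPM (169 to 209) and 203 CPM (184 to 223). The second was 2.31 times the first in WT (1.98 to 2.71) and 2.56 times in Cko (2.17 to 3.02). In the late cluster led by the light chains *Igkc* and *Iglc2* with *Ms4a1*, it stood at 1097 CPM (999 to 1202) and 1752 CPM (1625 to 1885). The order of the 3 clusters was the same in both libraries, and their intervals did not overlap.

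The late cluster was made of cells of 2 kinds by their neutrophil genes, which bears on its Cko/WT ratio of 1.60 (1.42 to 1.80). In 43 of its 69 WT cells and 35 of its 72 Cko cells, 5 neutrophil genes (*S100a8*, *S100a9*, *Camp*, *Ngp* and *Ltf*) gave at least 1% of the UMIs, with medians of 31.6% and 30.0%. These cells also held B cell genes, since *Cd79a* was seen in 88.4% and 94.3% of them. *Ly6g* was seen in 86.0% of the WT and 71.4% of the Cko cells of this kind, and *Cd177*, another neutrophil antigen of the family, in 76.7% and 77.1%. Doublets were called for 1 and 3 of them. The remaining 26 WT and 37 Cko cells drew at most 0.325% and 0.356% of their UMIs from these genes, and held no *Ly6g* UMI in WT and 1 in Cko.

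*Ly6d* in the cells with few neutrophil UMIs stood at 2687 CPM in WT (2408 to 2989) and 2931 in Cko (2678 to 3201), the highest levels of the gene. It was seen in 96.2% and 97.3% of these cells, and the ratio was 1.09 (0.948 to 1.26). These cells were themselves unlike between the libraries. *Igkc* stood at 58468 CPM in WT and 3851 in Cko, and *Cd74* at 5429 and 10579. In the cells with neutrophil UMIs *Ly6d* stood at 418 and 922 CPM, a ratio of 2.21 (1.76 to 2.77). The ratio of the whole cluster thus moved both with the share of cells with few neutrophil UMIs, 26 of 69 in WT and 37 of 72 in Cko, and with the level in the other cells. What the other cells are was not tested. For the whole B cell-like class the ratio was 1.34 (1.23 to 1.45), and leaving out all such cells, a step added after the data were seen, gave 1.25. With each library clustered on its own the direction turned, to a ratio of 0.690. None of the 5 members was past 1.5-fold in B cell-like cells, where 5.52% of all 4950 genes were.

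**Figure D3:**
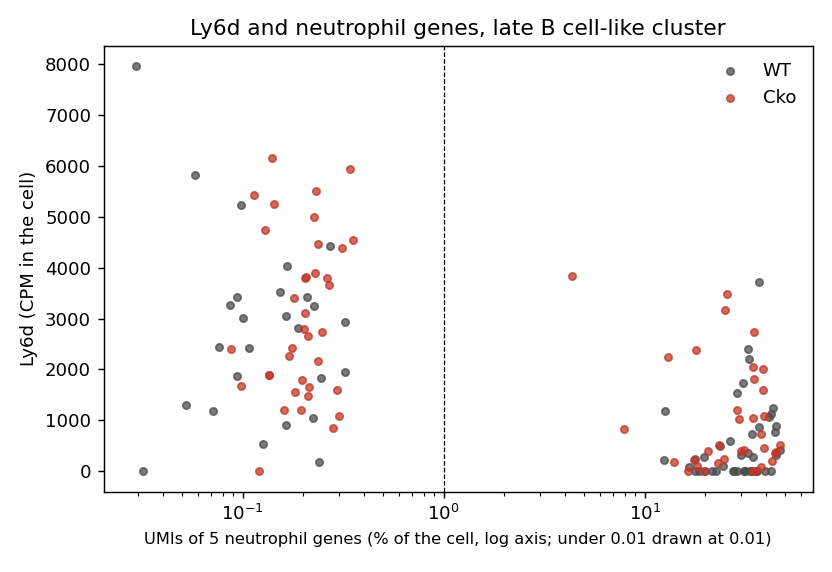
Each point is a cell of the late B cell-like cluster, 69 in WT (grey) and 72 in Cko (red), with the share of its UMIs from 5 neutrophil genes on the horizontal log axis (percent) and its *Ly6d* level on the vertical axis (CPM). Cells left of the dashed line at 1% stay at or below 0.356%, and those right of it start at 4.34%.

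Outside these classes *Ly6d* was low. Neutrophil-like cells, taken as background for *Ly6d*, stood at 12.4 CPM in WT (9.26 to 16.3) and 7.48 in Cko (5.74 to 9.56), a ratio of 0.603 (0.411 to 0.887). It was the single member past 1.5-fold of the 4 with 100 UMIs in neutrophil-like cells, where 7.95% of all 4266 genes were. Thinned shares there were 2.34% and 1.35%. Monocyte-like cells stood at 31.1 and 19.5 CPM, a ratio of 0.627 (0.454 to 0.869), and granulocyte-monocyte progenitor-like cells at 11.8 and 17.7 CPM, a ratio of 1.504 (1.13 to 2.004). The UMIs were held by few cells, 4.64% and 4.38% of the monocyte-like cells, of which the highest held 18 and 12 UMIs. With each library clustered on its own the directions turned, to 1.09 in monocyte-like and 0.937 in granulocyte-monocyte progenitor-like cells, and in the *Retnlg* neutrophil-like cluster alone the ratio was 1.197. In granulocyte-monocyte progenitor-like cells both *Ly6g* (1.72, 1.17 to 2.55) and *Ly6d* were past 1.5-fold upward, 2 of 4 members with 100 UMIs, where 5.29% of all 5137 genes were past it either way. Both levels there were low, near those of the whole erythroid-like class. They rested on 44 and 75 UMIs of *Ly6g* and 85 and 127 UMIs of *Ly6d*. Without cells that held at least 1% of UMIs from the 5 neutrophil genes, the *Ly6g* ratio there was 1.39, no longer past 1.5-fold. That ratio rested on 8 WT and 13 Cko UMIs, under the limit of 100 UMIs. *Ly6d* in the same remaining cells stood at 6.39 CPM in WT and 11.2 in Cko, from 25 and 51 UMIs, also under the limit. In erythroid-like cells *Ly6d* stood at 18.5 and 13.2 CPM, and 323 of the 642 WT UMIs lay in 1 cluster of 203 cells, led by *Acp5* and *Retnlg*, in which 58 cells were called as doublets. None of the 4 members with 100 UMIs was past 1.5-fold in erythroid-like cells, where 13.5% of 5252 genes were.

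*Ly6a*, the gene for Sca-1, was the sparsest member, with 281 UMIs in WT and 219 in Cko, and it reached 100 UMIs in the B cell-like class alone. Stromal-like cells were led by *Fabp4*, *Cxcl12* and *Sparc*, with *Col1a1* and *Adipoq* also among the leading genes. *Fabp4* was on the list of endothelial markers. With separate clustering the class was led by *Col1a1*, *Col1a2* and *Bglap* in WT and by *Fabp4*, *Cxcl12* and *Sparc* in Cko. Whether its make-up differed between the libraries was not tested. Stromal-like cells were highest for *Ly6a* in WT at 299.8 CPM (229 to 385). In Cko they stood at 71.7 CPM (32.8 to 136). These values rested on 61 UMIs in 29 cells and 9 UMIs in 18 cells, under the limit of 100 UMIs, and the ratio of 0.239 (0.104 to 0.485) is a description. *Ly6a* was seen in 62.1% of the WT stromal-like cells and 44.4% of the Cko cells. *Gpihbp1*, a Ly6 relative that holds lipoprotein lipase on the capillary endothelium, stood at 334 CPM in WT and 630 in Cko in the same cells, a ratio of 1.88 (1.35 to 2.65) and in the opposite direction.

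In stem and progenitor-like cells, led by *Ifitm1*, *Cd34* and *Flt3*, *Ly6a* stood at 128 CPM in WT (85.3 to 186) and 104 in Cko (71.3 to 147), a ratio of 0.812 (0.474 to 1.3995). After thinning, 23.7% of the WT cells (11.4 to 40.2) and 7.89% of the Cko cells (1.66 to 21.4) held a UMI. One Cko cell held 24 of the 32 UMIs, so the level and the share did not point the same way and no order is read from them. T/NK-like cells stood at 122 and 110 CPM, and plasmacytoid dendritic cell-like cells at 50.7 and 102 CPM, with intervals that overlap in each pair. Among B cell-like cells, late cells with few neutrophil UMIs held the most, at 223 CPM in WT (148 to 322) and 356 in Cko (272 to 458). The early cluster led by *Vpreb1* stood at 17.1 CPM in WT (13.1 to 22.0) and 6.51 in Cko (3.92 to 10.2), and intervals of this pair do not overlap. Neutrophil-like cells, the background, held 1 UMI in 642 WT cells and 3 in 1186 Cko cells. Erythroid-like Cko cells held none in 577 cells, which allows 0.421 CPM.

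*Ly6e* was the most widely seen member. It was highest in 3 classes. Plasmacytoid dendritic cell-like cells stood at 2540 CPM in WT (2367 to 2722) and 1965 in Cko (1820 to 2120), monocyte-like cells at 2403 CPM (2340 to 2467) and 1583 CPM (1547 to 1620), and basophil or mast cell-like cells, led by *Prss34* and *Mcpt8*, at 2168 CPM (1913 to 2447) and 1705 CPM (1507 to 1922). In WT the intervals of plasmacytoid dendritic cell-like and monocyte-like cells overlapped, as did those of monocyte-like and basophil or mast cell-like cells. In Cko basophil or mast cell-like cells stood above monocyte-like cells, with intervals that overlapped. Stromal-like (1145 and 940 CPM), B cell-like (1054 and 977) and T/NK-like cells (941 and 906) were intermediate as classes. Within the B cell-like class, late cells with few neutrophil UMIs stood at 2090 CPM in WT (1845 to 2359) and 2023 in Cko (1814 to 2250). Erythroid-like cells (243 and 207 CPM) and megakaryocyte-like cells (251 and 279 CPM) were low. Neutrophil-like cells were the lowest class at 59.6 CPM (52.5 to 67.5) and 46.0 CPM (41.6 to 50.9). Within the erythroid-like class, the cluster led by *Tmcc2*, *Xpo7* and *Rsad2* stood lower, at 36.2 and 19.7 CPM. The erythroid-like cluster led by *Bpgm*, *Fam220a* and *Fam213a* stood at 29.2 CPM in WT and 56.3 CPM in Cko.

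Along the myeloid classes *Ly6e* therefore separated monocyte-like from neutrophil-like cells in the direction opposite to *Ly6g*. From granulocyte-monocyte progenitor-like cells (742 and 673 CPM), the level was 3.23 times as high in the *Fn1* monocyte-like cluster in WT (3.10 to 3.35) and 2.33 times in Cko (2.24 to 2.43). Granulocyte-monocyte progenitor-like cells were themselves mixed, since 10% of cells held at most 1 UMI and another 10% at least 24 in WT and 26 in Cko. After thinning, *Ly6e* and *Ly6c2* were seen together in 95.7% of WT and 93.4% of Cko monocyte-like cells, in 59.4% and 62.0% of granulocyte-monocyte progenitor-like cells, and in 11.7% and 9.95% of neutrophil-like cells.

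Within monocyte-like cells the Cko/WT ratio of *Ly6e* was 0.659 (0.636 to 0.683). With *Ly6d*, it was 1 of 2 members past 1.5-fold downward among the 3 with 100 UMIs, and 12.0% of all 4516 genes were past 1.5-fold either way there. Unlike that of *Ly6c2*, the ratio was alike in both clusters, 0.656 (0.630 to 0.682) in the *Fn1* cluster and 0.649 (0.589 to 0.717) in the *Sirpb1c* cluster. The median cell held 15 UMIs in WT and 10 in Cko. With each library clustered on its own the ratio was 0.864 and no longer past 1.5-fold, and that of *Ly6d* was above 1, so both downward calls were lost. In plasmacytoid dendritic cell-like cells the ratio was 0.774 (0.698 to 0.858), and it was 0.685 and 0.713 in the clusters led by *Cd7* and by *Siglech*. The ratio was 0.772 (0.657 to 0.909) in neutrophil-like cells, 0.787 (0.661 to 0.936) in basophil or mast cell-like cells and 0.927 (0.893 to 0.962) in B cell-like cells. The value in neutrophil-like cells was 0.382 with each library clustered on its own and 1.30 in the *Retnlg* cluster alone. The ratio was 0.906 (0.872 to 0.943) in granulocyte-monocyte progenitor-like and 0.851 (0.805 to 0.900) in erythroid-like cells, both mixed classes. Granulocyte-monocyte progenitor-like cells with under 1% of UMIs from the 5 neutrophil genes stood at 1067 CPM in WT and 894 in Cko. The rest, 50.1% of the class in WT and 42.0% in Cko, stood at 358 and 283 CPM. Erythroid-like clusters with 100 UMIs had ratios from 0.542 to 1.02. In T/NK-like, megakaryocyte-like, stem and progenitor-like and stromal-like cells the interval held 1.

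Macrophage-like cells, led by the complement genes *C1qa*, *C1qb* and *C1qc*, had a ratio of 1.67 (1.16 to 2.34) from 203 UMIs in 51 WT cells and 41 UMIs in 9 Cko cells, of which 1 cell held 20. It was 1.22 with thinned cells, 1.21 without cells with at least 1% of UMIs from hemoglobin genes and 1.26 with classes from marker scores, and no longer past 1.5-fold. *Ly6e* was the 1 member with 100 UMIs in that class, where 37.4% of all 484 genes were past 1.5-fold. It was also the 1 member of that depth in basophil or mast cell-like, megakaryocyte-like, stem and progenitor-like and stromal-like cells, where it was not past 1.5-fold and 18.3%, 29.2%, 11.3% and 23.7% of all genes were. In all, 30 of 60 pairs of a member and a class had 100 UMIs, of which 4 were past 1.5-fold upward and 3 downward. No share among the members is read as a result, since the members were few and several of these pairs lay at background levels.

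**Figure D4:**
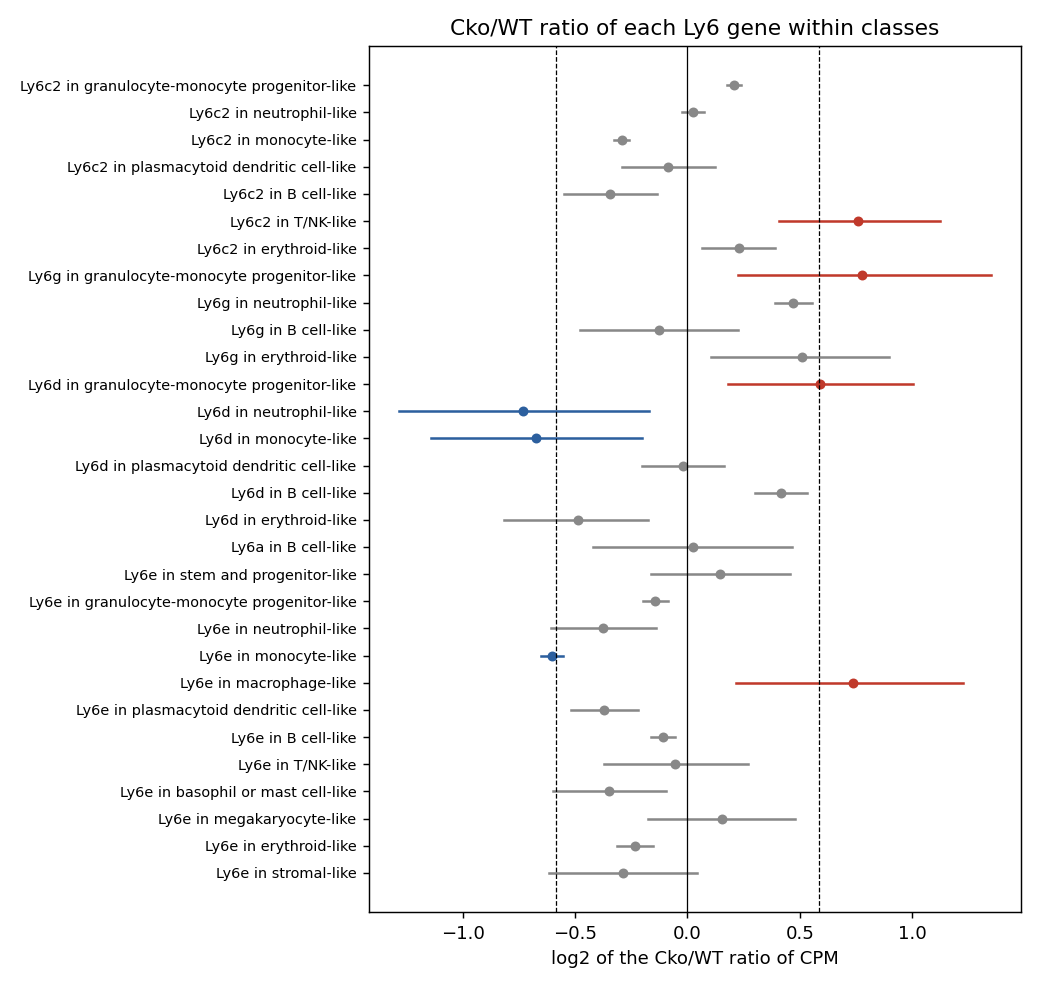
Log2 of the Cko/WT ratio of CPM (horizontal axis) for the 30 pairs of a Ly6 gene and a class with at least 100 UMIs, with 95% conditional intervals for counting error. Red marks the 4 pairs past 1.5-fold upward and blue the 3 downward (dashed lines), and the narrow blue interval is that of *Ly6e* in monocyte-like cells.

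Because *Ly6a*, *Ly6c2* and *Ly6e* are known to respond to interferon, 40 other interferon-stimulated genes, of which 26 were listed in both libraries, were set beside them. In monocyte-like cells 21 genes of the list had 100 UMIs. None was past 1.5-fold upward and 13 were downward, and the median log2 ratio was -0.66, against -0.10 for all 4516 genes. Of all 4516 genes, 225 were past it upward and 318 downward. The lowest were *Gbp2*, a guanylate-binding GTPase of cell-autonomous defence, at 44.5 CPM in WT and 8.65 in Cko (ratio 0.194, 0.131 to 0.283), and *Ifi47*, an immunity-related GTPase, at 94.7 and 30.2 CPM (0.319, 0.255 to 0.396). The highest were *Lgals3bp*, a secreted galectin-binding glycoprotein (1.01, 0.669 to 1.56), and *Irf7*, the transcription factor that amplifies the interferon response (0.853, 0.686 to 1.06). *Ly6e*, with a log2 ratio of -0.60, lay inside the range of the list and near its median. *Ly6c2*, with -0.29, also lay inside the range but above the median, and *Ly6a* had too few UMIs.

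In neutrophil-like cells 14 genes of the list had 100 UMIs, 3 were past 1.5-fold upward and none downward. The median log2 ratio was -0.06, against -0.04 for all genes. Of all 4266 genes, 176 were past it upward and 163 downward. The highest were *Rtp4*, at 11.9 CPM in WT and 35.7 in Cko (2.99, 2.21 to 4.12), and *Trim30a* (1.95, 1.25 to 3.16), whereas the lowest were the exonuclease *Isg20* (0.752, 0.504 to 1.13) and the RNA-activated kinase *Eif2ak2* (0.772, 0.563 to 1.07). In B cell-like cells 11 of 16 were past 1.5-fold downward and none upward, with a median of -0.79 against -0.10, whereas *Ly6e* stood at a ratio of 0.927. Of all 4950 genes there, 154 were past it downward and 119 upward. In granulocyte-monocyte progenitor-like cells 8 of 16 were downward (median -0.58 against -0.03), and in erythroid-like cells 8 of 22 (median -0.41 against -0.11). Of all genes in these classes, 155 of 5137 and 342 of 5252 were downward. Over these 3 whole classes, the ratios of *Ly6e*, 0.927, 0.906 and 0.851, were nearer 1 than the median of the list. Those of *Ly6c2*, 0.789, 1.15 and 1.17, were above that median, the first and the last at low levels. The list was not read within clusters of a class. Whether the list differed between classes was not tested.

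**Figure D5:**
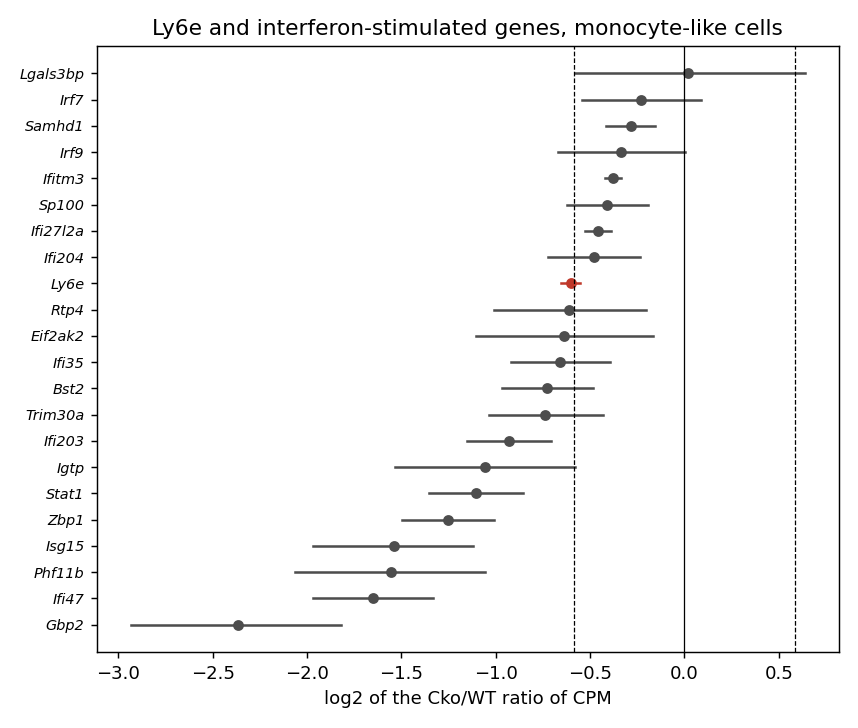
Log2 of the Cko/WT ratio (horizontal axis) with 95% conditional intervals in monocyte-like cells for *Ly6e* (red) and the 21 interferon-stimulated genes with at least 100 UMIs (grey), ordered by ratio. Dashed lines mark 1.5-fold, and 13 of the 21 lie past it downward and none upward.

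Among 33 other genes of the Ly6 and uPAR family, 7 were listed in both libraries, 3 in WT alone and none in Cko alone. *Cd177*, a surface antigen of neutrophils, stood at 376 CPM in WT and 458 in Cko in neutrophil-like cells, a ratio of 1.22 (1.15 to 1.29). *Plaur*, the urokinase receptor, stood at 83.5 and 181 CPM there, a ratio of 2.17 (1.93 to 2.45), and at 49.7 and 87.0 CPM in monocyte-like cells, a ratio of 1.75 (1.42 to 2.17). *Cd59a*, an inhibitor of complement lysis, was mostly erythroid-like, at 57.4 and 52.0 CPM (0.905, 0.807 to 1.01), and *Cd59b*, listed in WT alone, stood at 19.5 CPM there. *Ly6i*, close to *Ly6a* on the chromosome, was mainly seen in monocyte-like cells, at 30.3 and 17.3 CPM (0.572, 0.409 to 0.801). *Ly6k* and *Lynx1* gave 68 and 79 UMIs in WT and 120 and 71 in Cko over all cells. *Ly6c1*, the close relative of *Ly6c2*, was listed in WT alone with 68 UMIs, 22 of them in stromal-like cells (108 CPM) and 22 in granulocyte-monocyte progenitor-like cells, and *Ly6g6c* was listed in WT alone with 15 UMIs. Since *Ly6c1* and *Ly6c2* share part of their 3′ ends, low *Ly6c2* levels in stromal-like cells (88.5 and 63.8 CPM) are uncertain.

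The number of members in 1 cell also differed between classes. After thinning, 2 members were seen in 91.9% of the WT and 88.7% of the Cko monocyte-like cells, whereas none was seen in 55.3% and 59.1% of the erythroid-like cells. Plasmacytoid dendritic cell-like cells held the most, since 3 or 4 members were seen in 28.3% and 11.3% of the WT cells and in 27.8% and 12.96% of the Cko cells. In neutrophil-like cells 1 member was seen in 40.2% and 33.8% and 2 in 50% and 55.6%.

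Over 39 profiles of a cluster in a library with at least 20 cells, the levels of the members were compared with those of other genes as Pearson's r of log2(CPM + 10). The profiles share 2 libraries and differ in depth, and r is given as a description. *Ly6g* was most like *Chil1*, *AA467197*, *Ltf*, *Asprv1* and *Ceacam10* (r from 0.947 to 0.963). *Ly6c2* was most like *Slfn2*, *Csf2ra*, *Tyrobp*, *Cybb* and *Myo1f* (0.873 to 0.898), and *Ly6e* like *Crip1*, *2700060E02Rik*, *Lgals1*, *Mndal* and *S100a10* (0.899 to 0.918). *Ly6d* was most like *Spib*, *Dnajc7*, *Atp1b1*, *Tnfrsf13c* and *Mzb1* (0.802 to 0.851), and *Ly6a* like *Gimap6*, *Zbtb20*, *Il2rg*, *Eva1b* and *Peak1* (0.766 to 0.814). Between members r was highest for *Ly6d* and *Ly6e* (0.596) and *Ly6d* and *Ly6a* (0.589), and lowest for *Ly6g* and *Ly6e* (-0.228).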

How the data were processed

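Single BMCs of 1 WT and 1 Cko mouse were read by 10x Chromium 3′ v2 sequencing. The authors counted UMIs with Cell Ranger on GRCm38 per the labels, whose version is not given in the sources used here, and deposited whole-number counts per gene and cell without normalization. Listed genes reached at least 4 UMIs in a cell, so unlisted genes were not taken as 0.

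A barcode counted as a cell from 200 genes upward. Scrublet (scanpy 1.11.5, expected rate 5%) called 1.95% of WT and 1.04% of Cko cells as doublets, which stayed in. Both libraries were clustered together in Seurat 5.3.0 (R 4.3.3) on 2000 variable genes, without the Ly6 family, at the lowest resolution with at least 18 clusters. A cluster was named after cell type markers when at least 3 of them led it. One cluster held leading genes of several types and was divided into 5 after these were seen, since no stem and progenitor-like cluster had formed. Names were rebuilt here and may differ from those of the study.

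Levels are UMIs of a gene per 1000000 UMIs of the class (CPM), with exact Poisson intervals, ratios are Cko over WT with exact conditional intervals, and shares have exact binomial intervals, at 95%. A ratio counted as past 1.5-fold when the class held 100 UMIs of the gene. In simulated data with 200 genes changed by a fold of 2, 95.4% of the ratio intervals in neutrophil-like cells (4266 genes) held the true value. The intervals treat UMIs as independent counts, so they do not cover spread between mice or UMIs gathered in few cells. The members, lists, markers and motifs were chosen with earlier results of these data known. Genes were named by rule: the members, *Mbtps1*, the listed family genes, cluster-leading genes, the 2 highest and 2 lowest interferon genes, and the 5 genes most like each member. Genes named in the late B cell-like cluster and *Xist* and *Ddx3y* were chosen after their values were seen. The alternatives tried are given in the closing section. Python 3.11.15 with scipy 1.17.1 was used.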

Additional observations from a re-analysis of the deposited data

Results flagged for a closer look

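The Cko/WT ratio of 2 members was past 1.5-fold upward in 1 class and downward in another. *Ly6d* had a ratio of 1.504 in granulocyte-monocyte progenitor-like cells and 0.603 in neutrophil-like cells, a difference of 1.32 on the log2 scale. Both directions turned under an alternative: log2 -0.094 in the former with each library clustered on its own, and 0.26 in the *Retnlg* cluster of the latter. *Ly6e* had a ratio of 1.67 in macrophage-like cells and 0.659 in monocyte-like cells, a difference of 1.34. Neither difference was tested, since there was 1 library per genotype. The *Ly6d* values were low, near those of erythroid-like cells, and the macrophage-like ratio rested on 9 Cko cells.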

How the results depend on the processing

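No paired analysis was possible because each genotype had 1 library, and no replicate could be left out. All values here are log2 Cko/WT ratios unless said otherwise, and the cause of a move was not tested except where the cells were chosen. Across 31 ratios and 375 alternative values, 328 kept the direction of the reported value. Of the values that turned, 3 belonged to ratios past 1.5-fold. The remaining values turned for ratios that were not past it. Of the 7 ratios past 1.5-fold, 68 of 88 alternative values were past it in the same direction.

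*Ly6c2* in monocyte-like cells (-0.29) became -0.028 with each library clustered on its own, -0.40 and -0.42 at the resolutions with at least 10 and 25 clusters, -0.22 without hemoglobin, ribosomal and mitochondrial UMIs, -0.50 with thinned cells, and -0.081 and -0.25 in the *Fn1* and *Sirpb1c* clusters alone. *Ly6g* in neutrophil-like cells (0.47) became 0.74 with separate clustering, 0.62 with marker scores, and 0.20 and -0.035 in the *Chil3* and *Retnlg* clusters alone. *Ly6d* in B cell-like cells (0.42) became -0.54 with separate clustering, 0.61 with thinned cells, 0.28 with marker scores, and 0.11, -0.040 and 0.67 in the *Myl4*, *Vpreb1* and *Igkc* clusters alone. *Ly6a* in stem and progenitor-like cells (-0.30) became 0.58 with thinned cells and -2.50 with marker scores, and the class was not formed under the other clusterings. *Ly6e* in neutrophil-like cells (-0.37) became -1.39 with separate clustering and 0.37 in the *Retnlg* cluster alone. Single clusters and the removal of cells with neutrophil genes were added after the data were seen.

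The 3 values that turned for ratios past 1.5-fold were those of *Ly6d*: -0.094 in granulocyte-monocyte progenitor-like and 0.12 in monocyte-like cells with separate clustering, and 0.26 in the *Retnlg* neutrophil-like cluster alone. The 7 ratios past 1.5-fold became 3 with thinned cells, 11 with marker scores, 2 at a limit of 300 UMIs and 0 at a fold of 2. The most over the least mature neutrophils gave 2.23 for *Ly6g* in WT by bins and 2.43 by clusters. Of the 5 genes most like each member, 0 to 2 were among the 5 by Spearman correlation and 1 to 4 by log2(CPM + 1). *Ly6e* in monocyte-like cells (-0.60) was -0.21 with separate clustering, under which it was not past 1.5-fold. *Ly6a* in most classes, and *Ly6g* outside neutrophil-like cells, were limited by depth.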

Other observations

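Among late B cell-like cells with few neutrophil UMIs, *Ly6c2* stood at 922 CPM in WT (26 cells) and 29.7 CPM in Cko (37 cells), and 2 WT cells held 91 of the 116 WT UMIs. In these WT cells *Igkc* stood at 58468 CPM and *Ighm* at 34114 CPM, against 3851 and 854 CPM in Cko. In stem and progenitor-like cells, *Ly6d* gave no UMI in 38 WT cells and 61 UMIs in 38 Cko cells, 33 of them in 1 cell. In megakaryocyte-like cells *Cd59a* gave 15 UMIs in WT and 76 in Cko, a ratio of 6.92 (3.94 to 12.97).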
